A study of Mus musculus with 25 samples.

Results

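A set of 10 imprinted genes that act on fetal growth was followed through 25 mouse hearts. The 10 members are H19, Igf2, Igf2r, Dlk1, Meg3, Rian, Mirg, Cdkn1c, Peg3 and Grb10, taken by symbol from the 56941 genes of the count table, and all 10 were found there. Rian, Mirg, Meg3 and Dlk1 lie in 1 imprinted domain, and H19 and Igf2 in another. The hearts came from mice labelled WT or MCT1KO, a knockout of the lactate and pyruvate transporter that the gene Slc16a1 encodes. Each genotype was sampled with no pump, with a saline pump, or under Ang/PE, the neurohormonal agonists given to enlarge the heart. There were 4 WT and 3 MCT1KO hearts with no pump, 6 WT and 4 MCT1KO hearts with saline, and 3 WT and 5 MCT1KO hearts under Ang/PE. Strain, age, sex, the cells in which the transporter gene was deleted, the doses, the length of infusion and the chambers taken are not given in the sources used here. The labels number the replicates within each group, and each replicate was taken as a separate heart. On that reading the p-values measure the spread between hearts.

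Imprinted genes are transcribed mainly from the maternal or mainly from the paternal copy. Igf2, Dlk1 and Peg3 are paternally expressed genes, and Igf2 encodes a fetal growth factor. H19, Meg3, Rian and Mirg are maternally expressed non-coding RNAs, Igf2r encodes a receptor that carries IGF2 to the lysosome, and Cdkn1c and Grb10 encode inhibitors of the cell cycle and of insulin and IGF receptor signalling. Most of these genes are abundant in the fetal heart and fall after birth. Gene counts do not separate the parental copies, so nothing here measures imprinting itself.

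The libraries held 12216704 to 24880683 gene counts per heart. Slc16a1 was not lost in the hearts labelled MCT1KO: it lay between 132 and 223 CPM (counts-per-million, scaled by TMM) there and between 150 and 249 CPM in the WT hearts, and a gene-level count does not show which exons were present. The phrase "hearts labelled MCT1KO" is used for that reason. Markers of atrial muscle (Myl4, Myl7, Sln and Nppa) and of fat (Adipoq, Plin1, Cidec, Lep and Ucp1) were uneven between hearts. The summed atrial markers ran from 21.96 to 463 CPM with no pump, from 46.6 to 7385 CPM with saline and from 153 to 5149 CPM under Ang/PE. The summed fat markers stayed at or under 0.572 CPM in every no-pump and Ang/PE heart and reached 1069 CPM in the saline hearts. Nppa belongs to the atrial list and is also known to rise in ventricles under load. Ventricular markers were high in every heart, at 27880 CPM or more, and skeletal muscle markers summed to at most 2.30 CPM. In whole tissue, fewer cells of a type and less RNA per cell cannot be told apart.

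Several members are the host transcripts of microRNAs. In RefSeq (mouse build GRCm38.p6), 32 mature microRNAs lie within the spans of 5 members. The hairpin entries counted there were 16: 1 in H19, 1 in Igf2, 1 in Meg3, 3 in Rian and 10 in Mirg. The Meg3 count is too low. Its 3 mature microRNAs include miR-1906, at chr12:109544588-109544609, which lies far from the miR-770 pair and had no hairpin entry of its own in the count. The following are shown because they are the products these 5 host genes can give, with the seed (bases 2 to 8) in capitals.
mmu-miR-675-5p in H19, chr7:142577112-142577133, minus strand: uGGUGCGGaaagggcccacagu
mmu-miR-675-3p in H19, chr7:142577078-142577099, minus strand: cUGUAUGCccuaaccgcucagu
mmu-miR-483-3p in Igf2, chr7:142654932-142654952, minus strand: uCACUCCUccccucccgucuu
mmu-miR-770-5p in Meg3, chr12:109563710-109563731, plus strand: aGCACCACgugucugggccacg
mmu-miR-370-3p in Rian, chr12:109618305-109618326, plus strand: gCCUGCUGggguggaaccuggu
mmu-miR-410-3p in Mirg, chr12:109743764-109743784, plus strand: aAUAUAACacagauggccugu
mmu-miR-453 in Mirg, chr12:109735669-109735692, plus strand: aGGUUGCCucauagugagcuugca
mmu-miR-496a-5p in Mirg, chr12:109739132-109739152, plus strand: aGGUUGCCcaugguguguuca
The 32 mature sequences have 31 different seeds, and the only shared seed is that of miR-453 and miR-496a-5p, both in Mirg. Values reported here are those of the long host RNAs. The count table has its own rows for the hairpins in H19 and Igf2, Mir675 and Mir483, and both were at 0 in all 25 hearts, which allows a level of up to 0.00699 CPM from counting error alone. How reads shared by a hairpin and its host were counted is not given in the sources used here.

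Compared per kilobase of merged exon, Igf2r was the most abundant member, with a mean of 43.6 CPM per kilobase over the 25 hearts and a range of 29.7 to 51.4. Grb10 came next at 12.8 CPM per kilobase, followed by H19 at 9.74, Cdkn1c at 7.05 and Peg3 at 2.06. Meg3 stood at 0.813 CPM per kilobase, Rian at 0.630, Igf2 at 0.415, Mirg at 0.195 and Dlk1 at 0.0198. Of the 9 pairs of neighbours in this order, only Igf2r and Grb10 had ranges over the hearts that did not overlap, since Grb10 did not exceed 17.1 CPM per kilobase. Within single hearts, Igf2r lay above Grb10, Peg3 above Meg3 and Mirg above Dlk1 in all 25. Cdkn1c lay above Peg3 in 24 hearts, Igf2 above Mirg in 23, Meg3 above Rian and Rian above Igf2 in 21 each, and Grb10 above H19 in 20. H19 lay above Cdkn1c in 12 hearts, so the order of those 2 members is not fixed. The merged exons take in every annotated transcript of a gene, whichever are expressed here, and the order depends on that length. Cdkn1c has 2039 such bases and Peg3 13324, and by CPM alone Peg3 lay above Cdkn1c in most hearts. In GENCODE M21, 62.8% of the exon bases of Igf2 are shared with the gene Gm49394. How shared reads were counted is not given, so the Igf2 value per kilobase may be too low and its place in this order is uncertain. The receptor that clears IGF2 was thus measured at a far higher level per kilobase than Igf2 itself.

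**Figure D1:**
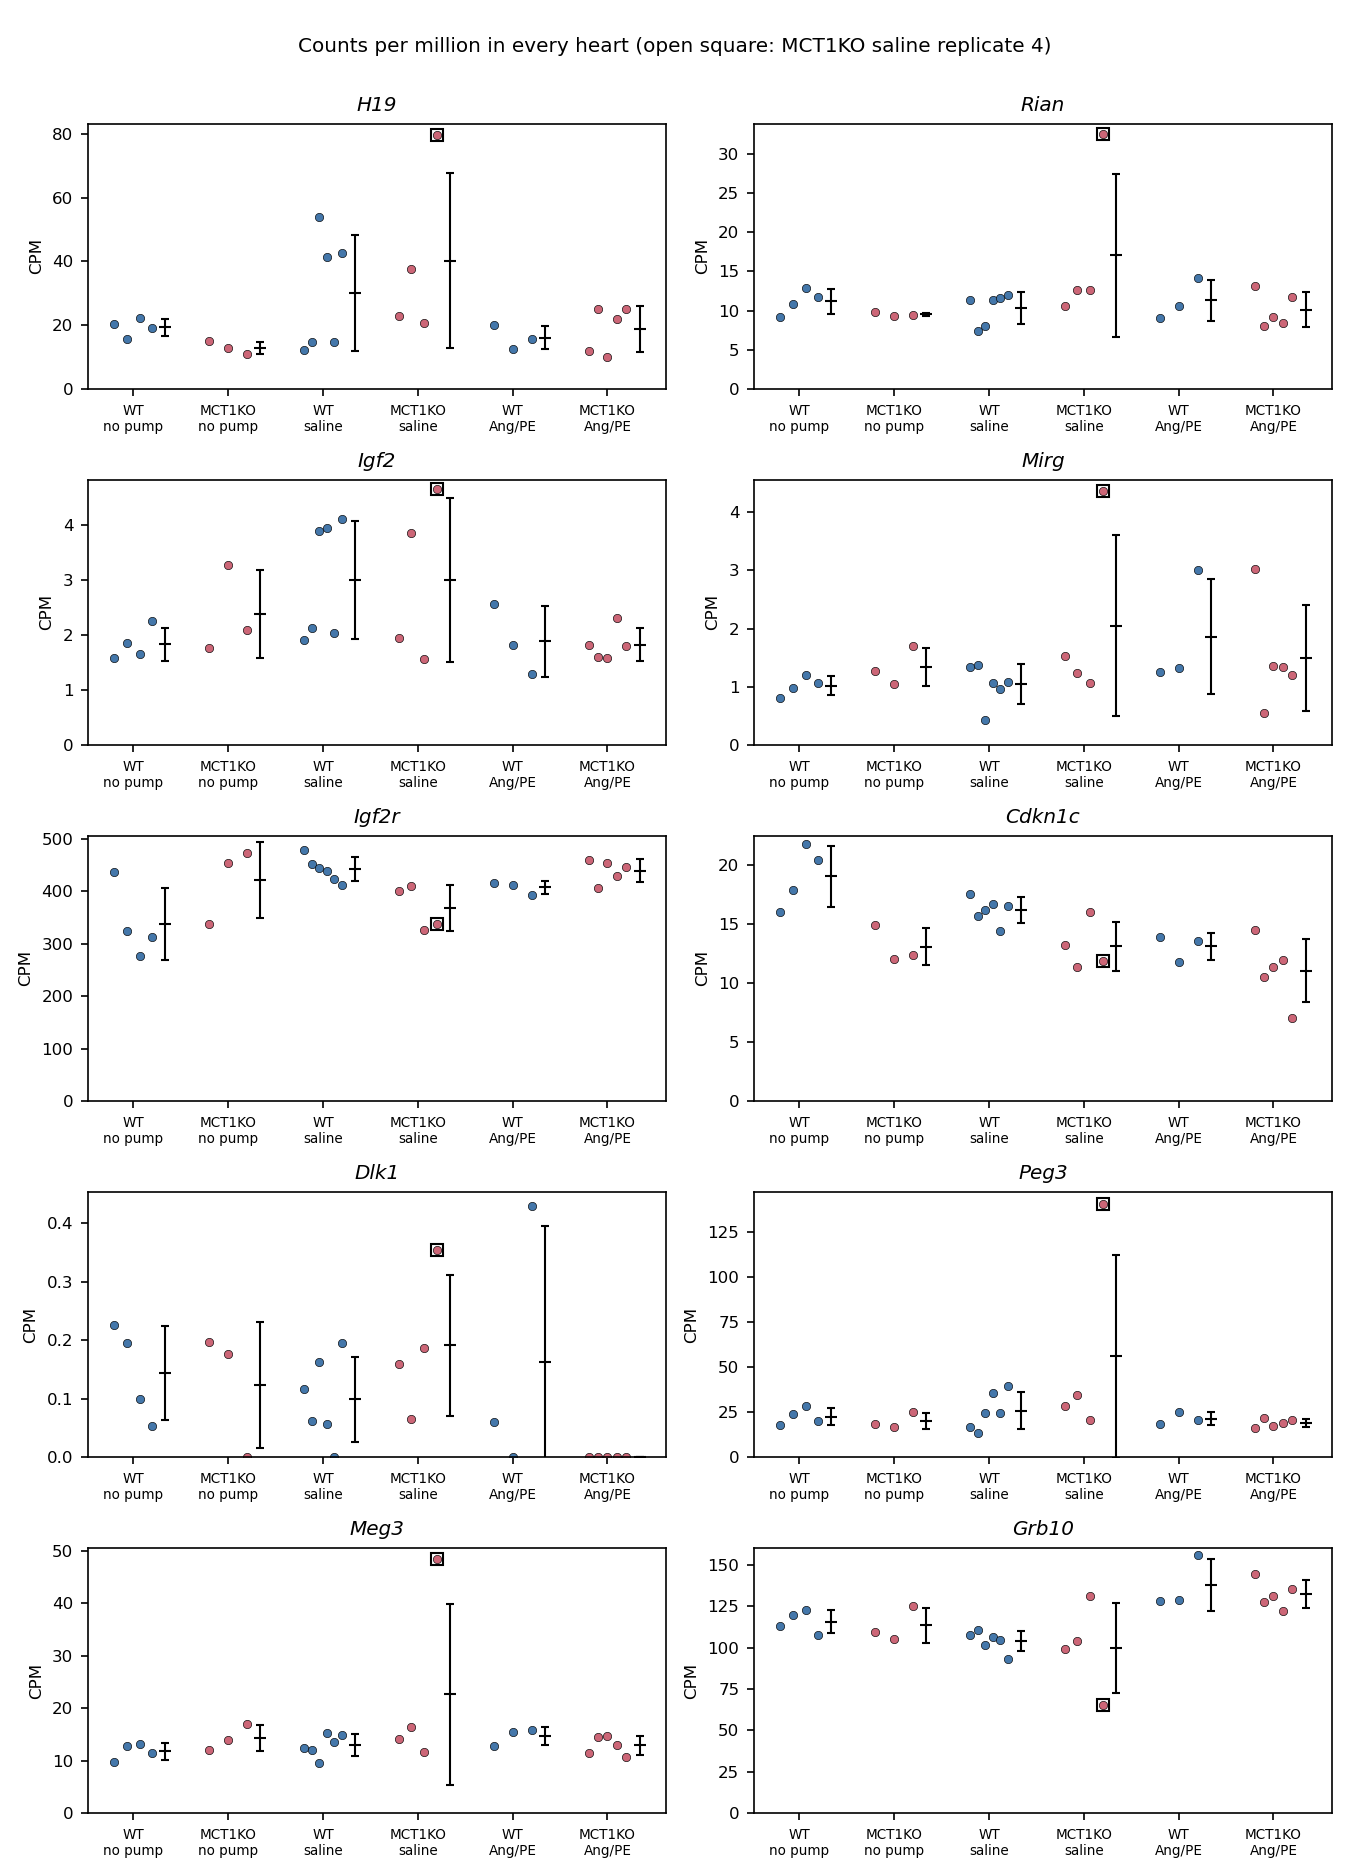
CPM values (linear axes from 0) of the 10 members in each of the 25 hearts, by genotype and treatment. Points are hearts, bars are the group mean with its SD, and the open square marks MCT1KO saline replicate 4, which reached 140.0 CPM for Peg3 and 65.3 CPM for Grb10.

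Dlk1, which encodes a membrane protein that holds back fat cell differentiation, was close to absent. It had 50 counts in all 25 hearts together, between 0 and 6 per heart, and it did not pass the filter on low counts. All 5 hearts labelled MCT1KO under Ang/PE had 0 counts, which allows up to 0.0430 CPM over that group from counting error alone. The WT hearts under Ang/PE held 7 counts, of which 6 came from replicate 3, and the saline hearts labelled MCT1KO held 13. Over the groups, Dlk1 in the saline hearts labelled MCT1KO was at 0.211 CPM, 4.91 times the 3-count limit of the Ang/PE hearts of that label. That ratio leaves out the error of the saline counts, and 6 of those 13 counts came from saline replicate 4. In the edgeR fit without the filter, of 37223 genes, Dlk1 for Ang/PE relative to saline under that label had an adjusted p of 0.071 (unadjusted 0.00122). In the other 10 comparisons of the design its adjusted p in that fit was 0.367 or higher. The other 9 members were among the 17682 genes tested.

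Across the 11 comparisons of the design, 2 member changes passed edgeR's quasi-likelihood test at a Benjamini-Hochberg adjusted p below 0.05 over all genes tested. Peg3 fell under Ang/PE relative to saline in the hearts labelled MCT1KO, where 4.46% of all genes tested were called in either direction and 2.7% were called lower. Igf2r rose with saline relative to no pump in WT hearts, where 6.61% of genes were called and 2.39% were called higher. With 9 members, 1 call is the smallest count above 0, and nothing more is read from it beside those shares. No member was called in any of the other 9 comparisons by edgeR with all 25 hearts in the fit, and DESeq2 called none there either except Igf2r in the genotype by saline interaction.

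In those 9 comparisons few genes were called at all: 0% between the genotypes under each treatment, 0.017% for Ang/PE relative to saline in WT hearts, 0.00566% for saline relative to no pump in hearts labelled MCT1KO, 0% and 0.503% for Ang/PE relative to no pump in WT hearts and in hearts labelled MCT1KO, and 0% and 0.00566% for the interactions of genotype with Ang/PE and with saline. At an unadjusted p below 0.05 the members numbered 2 of 9 between genotypes with no pump (12.2% of all genes), 6 with saline (17%) and 0 under Ang/PE (6.92%). The corresponding numbers were 1 for Ang/PE relative to saline in WT hearts (19.1% of genes), 3 for saline relative to no pump in hearts labelled MCT1KO (12.1%), 2 and 0 for Ang/PE relative to no pump in WT hearts and in hearts labelled MCT1KO (9.02% and 13.1%), and 5 and 2 for the interactions (13.5% and 17.2%). In the comparisons with a call they were 7 of 9 for Ang/PE relative to saline in hearts labelled MCT1KO (20.4% of genes) and 2 of 9 for saline relative to no pump in WT (24.3%). The 7 are not separate evidence, since 1 saline heart, MCT1KO replicate 4, is extreme for most of them. That heart was also the highest for Meg3, Rian, Mirg and Peg3. These genes are among the 6 between genotypes with saline and the 5 for the interaction with Ang/PE, so those numbers are not separate evidence either. Comparisons that share the saline or no-pump hearts are not independent of each other.

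**Figure D2:**
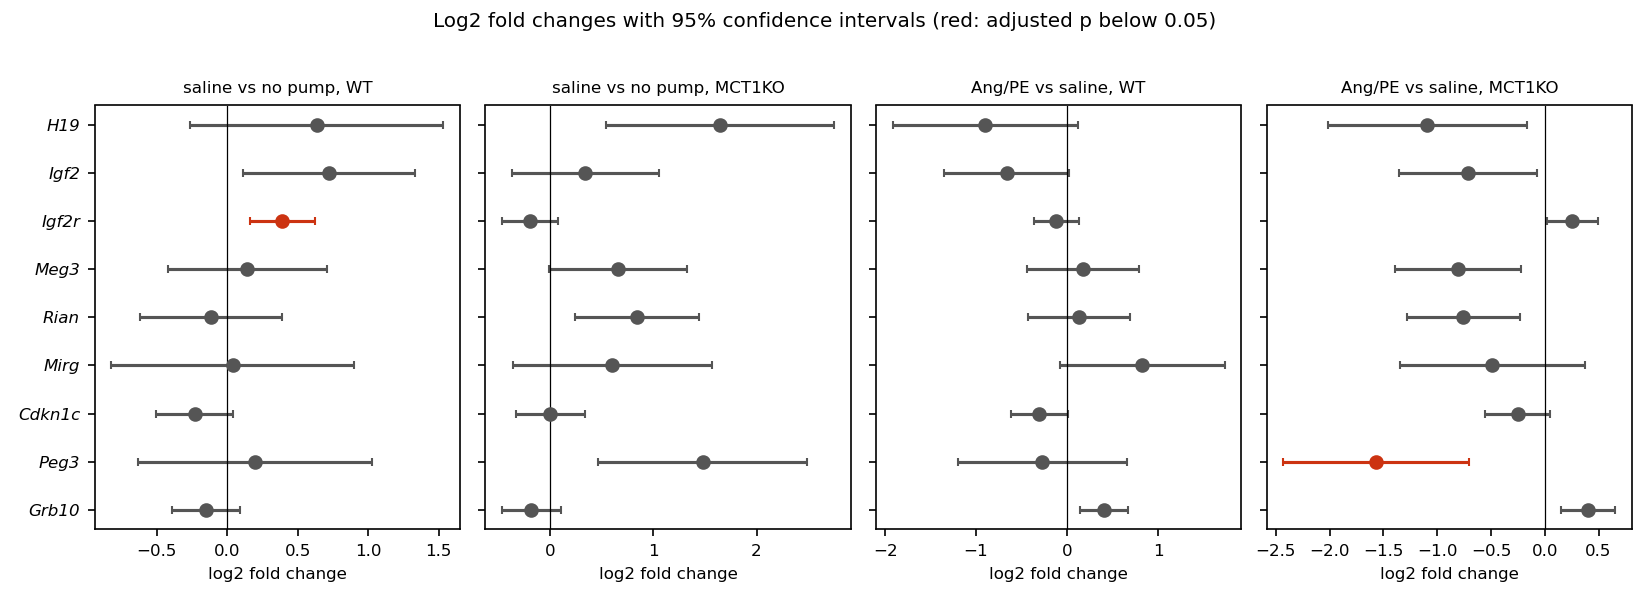
Log2 fold changes of the 9 tested members (edgeR) in 4 comparisons, with 95% confidence intervals; red points have an adjusted p below 0.05. Igf2r at 0.39 for saline relative to no pump in WT and Peg3 at -1.57 for Ang/PE relative to saline in hearts labelled MCT1KO are the red points.

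Peg3, a paternally expressed zinc finger gene, carried the larger of the called differences. In the saline hearts labelled MCT1KO it measured 28.5, 34.4, 20.9 and 140.0 CPM. In the Ang/PE hearts of that label it measured 16.2, 21.6, 17.4, 18.9 and 20.4 CPM. The groups overlap, since saline replicate 3 lies below Ang/PE replicate 2, and 1 saline heart lies far above all others. The log2 fold change was -1.57 (SE 0.42), with an edgeR adjusted p of 0.0364. Without saline replicate 4 it was -0.57 with an adjusted p of 0.364, and the call was also lost without each of the 5 Ang/PE hearts in turn, at -1.62 to -1.52 with adjusted p of 0.0516 to 0.0793. Marker covariates were the mean log2 CPM of Myl4, Myl7 and Sln (without Nppa) and that of the fat markers, not the sums above. With these atrial and fat marker covariates the Peg3 value was 0.30 with an adjusted p of 0.849. The interaction of genotype with Ang/PE relative to saline was -1.29 for Peg3 (SE 0.60, edgeR adjusted p = 0.355), -0.30 without saline replicate 4 and -0.050 with the marker covariates. In WT hearts Peg3 ran from 13.6 to 39.6 CPM with saline, with a median of 24.4, and measured 18.5, 25.2 and 20.4 CPM under Ang/PE. With no pump Peg3 ran from 17.6 to 28.2 CPM in WT and from 16.5 to 25.2 CPM under the MCT1KO label.

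The same saline heart, replicate 4 of those labelled MCT1KO, stood apart for most members. Among the 25 hearts it was the highest for 6 of the 9 tested members and the lowest for Grb10. Of all genes tested, 17.7% were highest and 16.8% lowest in that heart. Against the median of the other 3 saline hearts of its label, Peg3 was 4.91 times as high, Mirg 3.51 times, H19 3.47 times, Meg3 3.42 times, Rian 2.59 times and Igf2 2.38 times, while Grb10 was 0.626 times as high. Its atrial markers summed to 7385 CPM and its fat markers to 1069 CPM, both the highest of all hearts, and its ventricular markers to 27880 CPM, the lowest. Its mesothelial markers, at 85.8 CPM (next highest heart 30.9 CPM), and its smooth muscle and pericyte markers, at 1182 CPM (next 1051 CPM), were also the highest. Their part in the member values was not tested. This heart also had Xist RNA at 0.354 CPM, against 610 to 658 CPM in the other 3 saline hearts of its label.

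The non-coding RNAs of the Dlk1-Dio3 domain followed that heart. Meg3, the first of them in the domain, measured 14.2, 16.4, 11.6 and 48.4 CPM in the saline hearts labelled MCT1KO. Under Ang/PE in the same genotype Meg3 measured 11.5, 14.5, 14.8, 13.1 and 10.8 CPM. Apart from the 1 high heart these values lie in the same range. With no pump Meg3 ran from 9.75 to 13.2 CPM in WT and from 12.1 to 16.98 CPM under the MCT1KO label, and WT hearts with saline or Ang/PE lay between 9.58 and 15.9 CPM. The Meg3 difference of -0.81 (SE 0.28, edgeR adjusted p = 0.103) did not pass the test, and it was -0.13 without saline replicate 4. Without saline replicate 3 Meg3 was called lower, at -1.03 with an adjusted p of 0.0191.

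Rian, a host of small nucleolar RNAs as well as microRNAs, measured 10.6, 12.6, 12.6 and 32.6 CPM in the saline hearts labelled MCT1KO. With no pump the hearts of that label gave 9.77, 9.31 and 9.43 CPM for Rian. Every saline heart lies above every no-pump heart. Groups that did not overlap, in either direction, were seen for 2 of 9 members here and for 8.6% of all genes tested. The log2 difference of 0.84 (SE 0.29) had an edgeR adjusted p of 0.248, and it was 0.33 without saline replicate 4. Relative to saline, Ang/PE gave -0.76 for Rian in hearts labelled MCT1KO (adjusted p = 0.0867 by edgeR, 0.0477 by DESeq2), and -0.24 without saline replicate 4. Leaving out saline replicate 1 or replicate 3 made the call, with adjusted p of 0.0382 and 0.041.

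Mirg, a host transcript of the large microRNA cluster of the domain, was low. Its group means ran from 1.01 CPM with no pump in WT hearts to 2.05 CPM in the saline hearts labelled MCT1KO. The highest single values were 4.37 CPM in saline replicate 4 of that label, 3.02 CPM in replicate 1 of the Ang/PE hearts of that label and 3.00 CPM in replicate 3 of the WT Ang/PE hearts. For Ang/PE relative to no pump in WT hearts the Mirg groups did not overlap, as for 3 of 9 members and 10.7% of all genes tested, and the difference of 0.86 (SE 0.48, edgeR adjusted p = 0.603) did not pass the test. With all 25 hearts, edgeR called Meg3, Rian and Mirg in none of the 11 comparisons.

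Promoter windows from RefSeq (GRCm38.p6, 250 bases before to 50 after the start) are shown for Peg3 and Meg3, whose levels deviated together over the hearts, and for Igf2r and Grb10, which also had calls. Capitals mark matches, on either strand, to the GC box GGGCGG, the TATA box motif TATAAA, the CCAAT box, the E box CAGCTG, the YY1 motif GCCATNTT and the PLAGL1 motif GGGGCNCC.
Peg3 promoter, chr7:6730370-6730669, minus strand: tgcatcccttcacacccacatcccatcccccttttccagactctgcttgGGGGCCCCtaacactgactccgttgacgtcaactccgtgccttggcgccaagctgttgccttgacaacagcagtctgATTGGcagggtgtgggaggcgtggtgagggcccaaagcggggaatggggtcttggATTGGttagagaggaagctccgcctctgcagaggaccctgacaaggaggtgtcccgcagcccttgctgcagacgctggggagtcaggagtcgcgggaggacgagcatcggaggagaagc
Meg3 promoter, chr12:109540746-109541045, plus strand: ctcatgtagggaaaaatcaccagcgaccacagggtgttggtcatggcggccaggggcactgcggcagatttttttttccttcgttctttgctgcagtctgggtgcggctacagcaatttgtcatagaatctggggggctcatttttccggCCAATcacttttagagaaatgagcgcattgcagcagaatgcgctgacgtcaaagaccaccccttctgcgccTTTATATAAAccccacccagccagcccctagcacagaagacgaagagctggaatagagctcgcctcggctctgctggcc
Igf2r promoter, chr17:12769657-12769956, minus strand: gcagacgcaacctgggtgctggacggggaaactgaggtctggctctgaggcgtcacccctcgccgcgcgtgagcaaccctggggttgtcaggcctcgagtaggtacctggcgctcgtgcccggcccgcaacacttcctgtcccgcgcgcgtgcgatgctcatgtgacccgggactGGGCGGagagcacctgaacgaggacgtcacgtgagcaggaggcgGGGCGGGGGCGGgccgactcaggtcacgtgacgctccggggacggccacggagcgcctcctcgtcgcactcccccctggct
Grb10 promoter, chr11:12037371-12037670, minus strand: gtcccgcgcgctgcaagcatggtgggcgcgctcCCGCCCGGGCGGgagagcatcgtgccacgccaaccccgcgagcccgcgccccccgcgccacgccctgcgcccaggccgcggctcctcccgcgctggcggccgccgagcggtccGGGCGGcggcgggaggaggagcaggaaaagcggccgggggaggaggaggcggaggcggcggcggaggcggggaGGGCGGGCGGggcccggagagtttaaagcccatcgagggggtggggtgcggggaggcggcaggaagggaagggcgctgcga
The Peg3 window holds 2 CCAAT boxes and 1 PLAGL1 match, the Meg3 window 1 CCAAT box and a pair of overlapping TATA matches, the Igf2r window 3 GC boxes and the Grb10 window 5 GC boxes. The table has a second window each for Meg3 and Grb10, not printed here, with none of the 6 motifs and with 1 and 9 CG dinucleotides. Of 32851 windows of this length, 35.7% hold a GC box, 13.6% a TATA box, 37.4% a CCAAT box, 16.3% the E box, 6.05% the YY1 motif and 7.03% the PLAGL1 motif. CG dinucleotides number 13 in the printed Peg3 and Meg3 windows, 34 in that of Igf2r and 45 in that of Grb10, against a median of 7. As many as 45 are found in 1.93% of windows. These matches describe letters in a window and are not measured binding sites.

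H19, a maternally expressed non-coding RNA, split the saline hearts. In WT saline hearts it measured 12.3, 14.7, 54.0, 41.4, 14.8 and 42.7 CPM. In the saline hearts labelled MCT1KO it measured 22.98, 37.6, 20.7 and 79.7 CPM. The 3 WT hearts above 40 CPM are replicates 3, 4 and 6, whose atrial markers summed to 1461, 2596 and 1488 CPM, against 46.6, 125 and 619 CPM in the other 3. In the saline hearts labelled MCT1KO the atrial sums were 2384, 2009, 64.05 and 7385 CPM, so replicate 1, with H19 close to that of replicate 3, had a far higher atrial sum. No-pump hearts gave 15.8 to 22.1 CPM in WT and 10.9 to 14.9 CPM under the MCT1KO label. The no-pump groups do not overlap, as was so, in either direction, for 11.5% of genes tested. Xist RNA was present in 2 of the 4 WT no-pump hearts and in 0 of the 3 labelled MCT1KO.

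None of the H19 differences passed the test. For saline relative to no pump in hearts labelled MCT1KO the log2 difference was 1.65 (SE 0.53, edgeR adjusted p = 0.22), and every saline heart lay above every no-pump heart. Groups did not overlap there, in either direction, for 8.6% of genes tested. For Ang/PE relative to saline H19 gave -0.90 in WT hearts and -1.09 in hearts labelled MCT1KO, with edgeR adjusted p of 0.329 and 0.166. Without MCT1KO saline replicate 4 the latter was -0.52, and the H19 difference of saline relative to no pump was 1.08. With the atrial and fat marker covariates the H19 value in hearts labelled MCT1KO was 0.15. Over the 25 hearts the deviation of H19 from its group mean correlated with that of the atrial marker sum at r = 0.70 (Spearman's rho 0.67). Without MCT1KO saline replicate 4 that was r = 0.65. Both are descriptions, since H19 and the markers of a heart come from the same library. In the Ang/PE hearts labelled MCT1KO with atrial sums of 5149 and 1762 CPM, H19 was 25.1 and 25.0 CPM.

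Igf2, the growth factor gene next to H19, was low and divided the hearts the same way. It measured 3.90, 3.95 and 4.12 CPM in WT saline replicates 3, 4 and 6 and 1.92 to 2.13 CPM in the other 3. In the saline hearts labelled MCT1KO it measured 1.95, 3.86, 1.56 and 4.66 CPM. Without a pump WT hearts gave 1.58 to 2.25 CPM and hearts labelled MCT1KO 1.77, 3.28 and 2.10 CPM, and under Ang/PE all 8 hearts lay between 1.29 and 2.57 CPM. The difference of saline relative to no pump in WT was 0.72 (SE 0.30, edgeR adjusted p = 0.136), and Ang/PE relative to saline gave -0.66 in WT (0.282) and -0.71 in hearts labelled MCT1KO (0.194), with the adjusted p in parentheses; without saline replicate 4 the latter was -0.42. In the GENCODE M21 annotation 62.8% of the exon bases of Igf2 are shared with a readthrough gene, Gm49394, which had at most 2 counts in any heart.

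**Figure D3:**
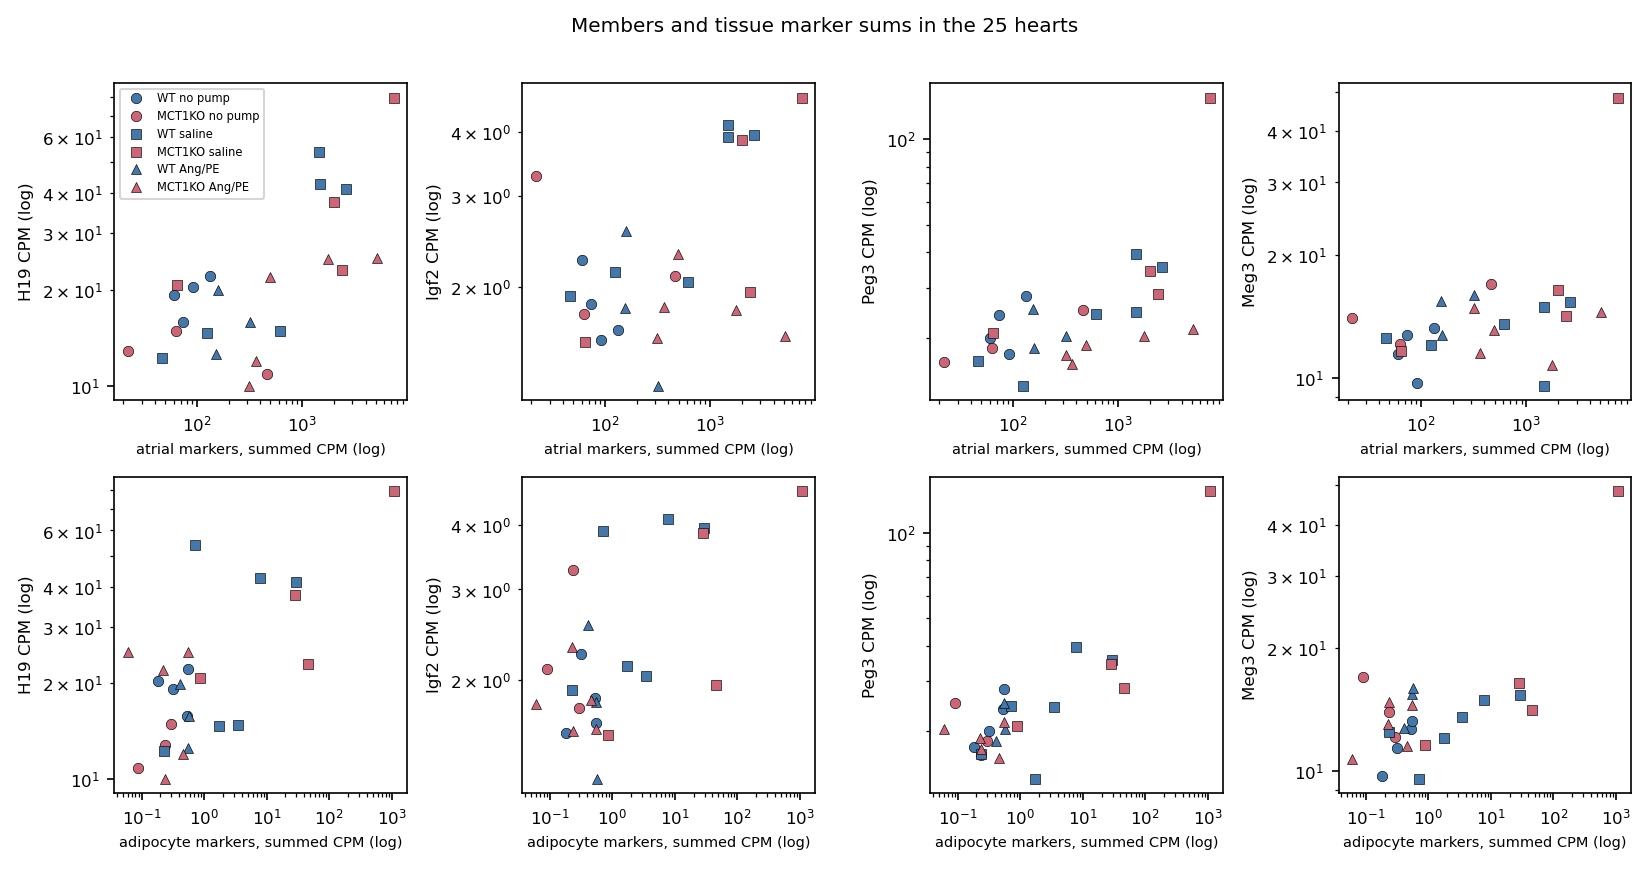
H19, Igf2, Peg3 and Meg3 in CPM against the summed CPM of atrial markers (upper row) and fat markers (lower row) in the 25 hearts, all axes log. Circles are no-pump, squares saline and triangles Ang/PE hearts, blue WT and red MCT1KO; the saline heart at 7385 and 1069 CPM of the markers is the highest point in each panel.

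Igf2r encodes the mannose 6-phosphate receptor that takes up IGF2. With no pump the WT hearts measured 437, 324, 276 and 312 CPM. With saline they measured 478, 453, 445, 439, 424 and 412 CPM. All but 1 of the no-pump hearts lie below every saline heart. The rise was 0.39 on the log2 scale (SE 0.11, edgeR adjusted p = 0.0389), from a mean of 337 ± 69.2 CPM (SD, n = 4) to 442 ± 22.96 CPM (SD, n = 6). Leaving out 1 heart at a time gave 0.30 to 0.53 for Igf2r, with adjusted p of 0.00428 to 0.177. The call was lost without WT no-pump replicate 2, 3 or 4 or WT saline replicate 1, 2, 3, 4 or 5. An offset for GC content and gene length brought Igf2r to 0.19 (adjusted p = 0.342), and the marker covariates left it at 0.37 with an adjusted p of 0.66. WT Ang/PE hearts measured 416, 412 and 393 CPM for Igf2r, so they too lay above all but 1 of the no-pump hearts. Relative to no pump the Ang/PE difference was 0.27 (edgeR adjusted p = 0.547).

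In hearts labelled MCT1KO the Igf2r values were 338, 453 and 473 CPM with no pump and 400, 411, 325 and 337 CPM with saline, so they overlap, with a log2 difference of -0.20 (SE 0.13, edgeR adjusted p = 0.579). Under Ang/PE the hearts of that label ran from 407 to 459 CPM. The difference between the genotypes in the saline response of Igf2r was -0.58 (SE 0.17); its adjusted p was 0.135 by edgeR. DESeq2 called it lower, and edgeR did so without WT no-pump replicate 1. The saline hearts labelled MCT1KO all lay below the WT saline hearts for Igf2r, with -0.26 (SE 0.11, edgeR adjusted p = 0.237). Groups that did not overlap, in either direction, were seen there for 1 of 9 members and 2.88% of genes. Airn, the antisense RNA that silences the paternal Igf2r copy, lay between 29.4 and 84.3 CPM over the 25 hearts, and its highest value was in WT Ang/PE replicate 3.

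Grb10 encodes an adaptor that damps insulin and IGF receptor signalling. WT saline hearts measured 108, 111, 102, 106, 105 and 92.9 CPM, and WT Ang/PE hearts 128, 129 and 156 CPM. These groups do not overlap, as was so for 2 of 9 members and 13.6% of genes. In hearts labelled MCT1KO the saline values were 99.0, 104, 131 and 65.3 CPM and the Ang/PE values 144, 127, 131, 122 and 135 CPM. There 1 saline heart, replicate 3, lies within the Ang/PE range. The log2 difference of Ang/PE relative to saline was 0.40 in each genotype, with an SE of 0.13 in WT and 0.12 under the MCT1KO label. Neither passed edgeR's test with all 25 hearts, with adjusted p of 0.102 and 0.0604, and the interaction was -0.0012 (95% interval -0.37 to 0.36). Grb10 was called in WT by edgeR on the compared groups alone (adjusted p = 0.013), and under the MCT1KO label by DESeq2 (0.0312) and by edgeR with a replicate block (0.0471) or without saline replicate 3 (0.55, adjusted p = 0.00466). The equal values rest on single hearts: without MCT1KO saline replicate 4 the Grb10 difference under that label was 0.24 and the interaction -0.17, and without replicate 3 the interaction was 0.14.

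When the comparison was averaged over the genotypes with equal weight, a contrast chosen after seeing the data, Grb10 rose under Ang/PE relative to saline by 0.40 (SE 0.088, edgeR adjusted p = 0.00887). In that contrast 8.12% of all genes were called and 3.89% were called higher, and 1 of 9 members was called, the smallest count above 0. Grb10 stayed called when each of the 18 hearts was left out in turn, with 0.33 to 0.48 and adjusted p of 0.000778 to 0.0482. It was not called with Xist as a covariate (0.34, adjusted p = 0.0591) or with the atrial and fat marker covariates (0.13, adjusted p = 0.787). Xist RNA was present in 13 hearts, and the libraries are unevenly mixed for it. In WT it was present in 2 of 4 no-pump, 1 of 6 saline and 3 of 3 Ang/PE hearts. Under the MCT1KO label the numbers were 0 of 3, 3 of 4 and 4 of 5. With no pump Grb10 ran from 107 to 123 CPM in WT and from 105 to 125 CPM under the MCT1KO label. Relative to no pump, Ang/PE gave 0.25 for Grb10 in WT and 0.22 in hearts labelled MCT1KO, with edgeR adjusted p of 0.604 and 0.52.

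Cdkn1c encodes the cyclin-dependent kinase inhibitor p57. It was highest in the WT no-pump hearts, at 16.02, 17.9, 21.7 and 20.4 CPM. The no-pump hearts labelled MCT1KO gave 14.9, 12.01 and 12.4 CPM, all below them. Groups that did not overlap were seen for 2 of 9 members in that comparison and for 11.5% of genes. The log2 difference was -0.54 (SE 0.16, edgeR adjusted p = 0.227). Xist RNA was present in 2 of 4 of those WT hearts and in 0 of 3 labelled MCT1KO. With Xist as a covariate the difference was -0.39 (edgeR adjusted p = 0.579). WT Ang/PE hearts, at 13.9, 11.8 and 13.6 CPM, lay below all WT no-pump hearts with -0.54 (SE 0.16, edgeR adjusted p = 0.387) and below all WT saline hearts, which ran from 14.4 to 17.6 CPM, with -0.30 (SE 0.15, edgeR adjusted p = 0.276). Groups did not overlap, in either direction, for 10.7% of genes in the first of these comparisons and 13.6% in the second. Xist RNA was present in 3 of 3 WT Ang/PE and 1 of 6 WT saline hearts.

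Cdkn1c differed between hearts labelled MCT1KO and WT by -0.30 with saline and by -0.25 under Ang/PE, with edgeR adjusted p of 0.264 and 0.755. The means under that label were 13.1 ± 2.09 CPM with saline (SD, n = 4) and 11.04 ± 2.69 CPM under Ang/PE (SD, n = 5), where the lowest heart of all, at 7.02 CPM, is found. Averaged over the 3 treatments, also a contrast chosen after seeing the data, the value was -0.37 (SE 0.088, edgeR adjusted p = 0.373), with 0% of genes called; at an unadjusted p below 0.05 Cdkn1c was the 1 member of 9 (11.4% of genes). Cdkn1c was called in that contrast only without MCT1KO saline replicate 3. In GENCODE M21, 30.7% of the exon bases of Cdkn1c overlap an antisense gene, Gm44732, and the strand setting of the counting is not given in the sources used here.

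Among 55 other imprinted genes, 43 were tested. For saline relative to no pump in WT hearts 4 of the 43 were called. Trappc9, a trafficking gene, rose from 49.7 ± 6.27 CPM (SD, n = 4) to 65.6 ± 5.498 CPM (SD, n = 6), a log2 change of 0.40 with an edgeR adjusted p of 0.0129. Asb4 rose by 0.73 (edgeR adjusted p = 0.035). Ube3a, the ubiquitin ligase gene of Angelman syndrome, fell from 221 to 169 CPM with a log2 change of -0.39 (edgeR adjusted p = 0.0284), and Mcts2, a retrogene within an intron of H13, changed by -0.54 (edgeR adjusted p = 0.0422). All 4 calls were lost with GC and length offsets (adjusted p of 0.0664 to 0.349) and with the marker covariates (0.66 to 0.804). Of the 10 fits that each left out 1 heart, the call was lost in 1 for Trappc9, 5 for Ube3a, 7 for Asb4 and 8 for Mcts2. The share of 4 in 43 stands beside the 6.61% of all genes called there, and the list's median log2 change was 0.11 against 0.0020 over all genes.

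For Ang/PE relative to saline in hearts labelled MCT1KO 1 of the 43 was called. Nap1l5 fell by 2.18 on the log2 scale (edgeR adjusted p = 0.0481), from a saline mean of 1.46 CPM that held 1 heart at 3.89 CPM. With the marker covariates the Nap1l5 value was 0.096, and without saline replicate 4 it was -1.01 (adjusted p = 0.466). In the contrast averaged over genotypes Plagl1, an imprinted zinc finger gene, was lower by -1.26 (edgeR adjusted p = 0.0318) and Herc3, in whose intron Nap1l5 lies, was higher by 0.31 (edgeR adjusted p = 0.044). With the marker covariates Plagl1 was at 0.42, and without MCT1KO saline replicate 4 at -0.83 (adjusted p = 0.0799). The Herc3 call was lost without the low-count filter, with a replicate block, with Xist, with the marker covariates and with GC and length offsets (adjusted p of 0.0631 to 0.783), and in 12 of the 18 fits that each left out 1 heart. In no other comparison of the design was any of the 43 called by edgeR. The most abundant of the list by CPM were Gnas (645 to 840 CPM over the hearts), Cd81 (204 to 292 CPM) and Ube3a (138 to 239 CPM).

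Of 18 genes of the IGF and insulin axis, 12 were tested and none was called by edgeR in any of the 11 comparisons of the design. Igf2bp2, which encodes an RNA-binding protein of the IGF2 mRNA, rose in the contrast averaged over genotypes by 1.20 (SE 0.24, edgeR adjusted p = 0.00648). Its group means were 4.41 CPM in WT saline and 13.8 CPM in WT Ang/PE hearts, and 6.11 and 10.4 CPM in those labelled MCT1KO. In WT the Igf2bp2 mean includes 1 Ang/PE heart at 27.8 CPM, without which the averaged value was 0.69 (adjusted p = 0.0437). With the marker covariates it was 1.05 and not called (adjusted p = 0.523). The most abundant of the list were Insr, the insulin receptor gene (281 to 458 CPM), Igfbp5 (76.2 to 671 CPM) and Igfbp7 (79.5 to 318 CPM).

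Members deviated from their group means together in some pairs. These correlations are over 25 hearts and are given as descriptions. Both members of a pair are measured in the same heart and share its library depth and tissue make-up. Meg3 and Peg3 had the highest, with r = 0.86 (Spearman's rho 0.74), and 0.59 without MCT1KO saline replicate 4. H19 and Igf2 had r = 0.74 (rho 0.68), and 0.67 without that heart. Rian and Mirg, neighbours in the same domain, had r = 0.73 (rho 0.68), and 0.58 without it. Meg3 and Rian, from the same domain, had r = 0.73 (rho 0.49), which was 0.25 without that heart, and Peg3 and Grb10 had r = -0.715 (rho -0.31), which was -0.27 without it.

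**Figure D4:**
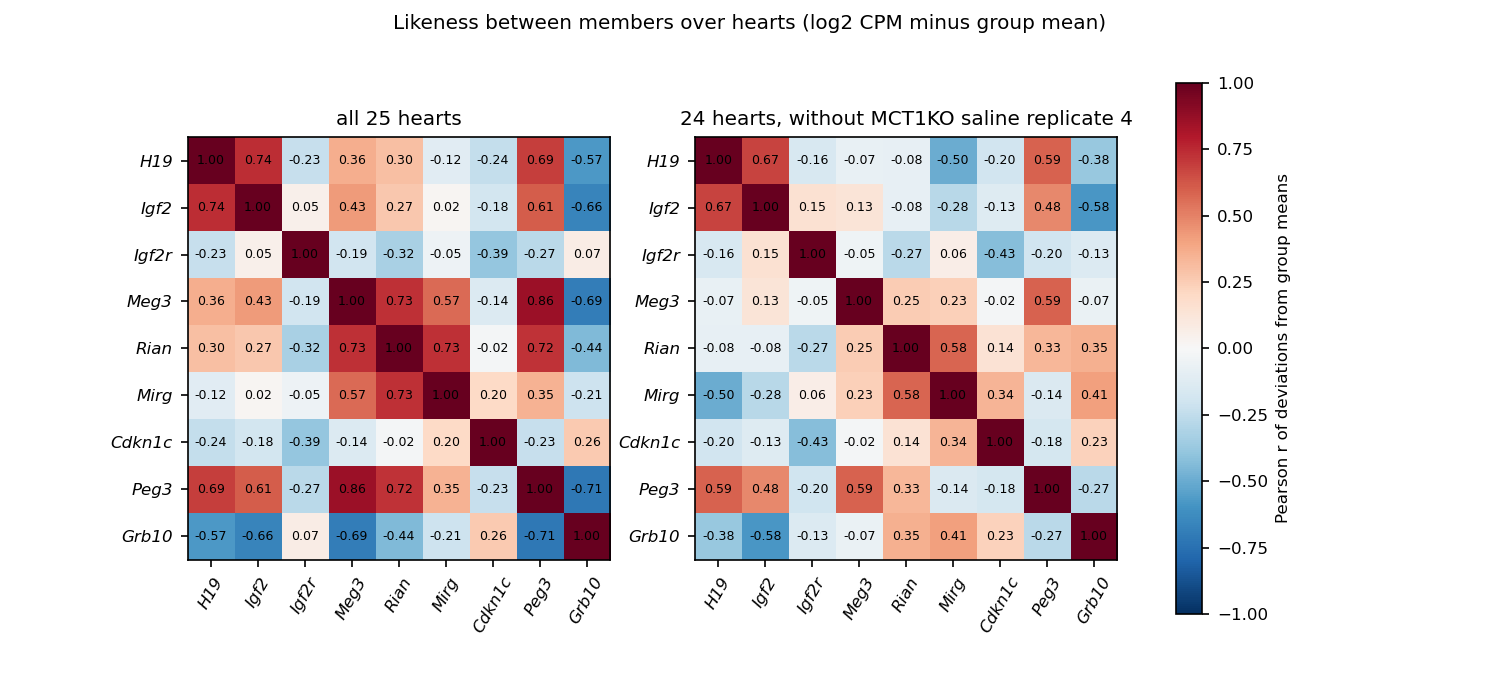
Pearson correlations between the 9 tested members over hearts, on log2 CPM minus the group mean, with all 25 hearts (left) and without MCT1KO saline replicate 4 (right). Meg3 with Peg3 goes from 0.86 to 0.59 and Meg3 with Grb10 from -0.69 to -0.07.

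The genes most like each member over the 25 hearts were ranked by Pearson's r on the same scale, with predicted genes and genes without a symbol left out. They were Npr3 (0.94), Plagl1 (0.90) and Cxcl13 (0.90) for H19, and Cacna2d2 (0.84), Bmp10 (0.83) and Sfrp5 (0.82) for Igf2. For Igf2r they were Ppp1r12b (0.95), Dag1 (0.92) and Tead1 (0.91). Bmp10 encodes an atrial signalling protein and Npr3 the natriuretic peptide clearance receptor. For Peg3 they were Gng2 (0.95), Ptgfrn (0.94) and Camk1d (0.93). For Meg3 they were Tkt (0.92), Net1 (0.91) and Col18a1 (0.91), which were at 0.69, 0.64 and 0.68 without MCT1KO saline replicate 4. For Rian they were Irs3 (0.90), Lats1 (0.89) and Cdk14 (0.88), and for Mirg Vps13b (0.81), Sec24b (0.80) and Airn (0.79). For Cdkn1c they were Mbd1 (0.80), Car4 (0.79) and Hypk (0.76). For Grb10 they were Sms (0.87), Lrrc2 (0.87) and Ivns1abp (0.86), which were at 0.62, 0.60 and 0.58 without that heart.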

How the data were processed

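Total RNA from 25 mouse hearts was depleted of ribosomal RNA and made into stranded libraries, per the labels' protocols. The deposited table holds raw counts per Ensembl gene. The submitters' processing notes name cutadapt 1.16, STAR 2.7.9a, featureCounts 1.6.3, DESeq2 1.42.1 and the build GRCm39; the annotation, the strand setting and the treatment of shared reads are not given in the sources used here. Symbols, exon lengths and GC content came from GENCODE M21, an annotation of the older build GRCm38, and 51948 of 56941 genes had a symbol there; genes without one held 0.778% of the counts. Genes were filtered by group with edgeR's filterByExpr (17682 kept), scaled by TMM, and fitted with edgeR 4.0.16 in R 4.3.3 as a robust quasi-likelihood model of 6 groups (19 residual degrees of freedom), with Benjamini-Hochberg adjustment over all genes tested and calls at 0.05. CPM used TMM-scaled totals, and log2 CPM a prior count of 2. Alternatives were DESeq2 1.42.0, other scaling, filters and covariates, offsets for GC and length (known for 97.1% of genes tested), a replicate block, the compared groups alone, and each heart left out. The procedure was tested on simulated data. Pairs of hearts within a group differed by more than sampling noise (lowest chi-square per degree of freedom 3.33). The members and lists were chosen with earlier results of these data known. All 10 members are named. Of the other lists, the text names every gene called where at most 6 of a list were called, and the 3 most abundant. The genes most like a member are the 3 tested genes with the highest Pearson's r. Genes without a symbol or named only by Gm number, Rik or accession were left out. The contrasts averaged over groups were added after seeing the data. Intervals of log2 differences use the standard errors of the edgeR fit, which take in the spread between hearts. Limits of a count of 0 cover counting error only, and a limit is 3 counts over the total.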

Additional observations from a re-analysis of the deposited data

Results flagged for a closer look

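In 36 tests for a heart far from the others of its group, 2 values stood out, and 1.8 are expected by chance. Rian in MCT1KO saline replicate 4 was at 5.03 log2 CPM, far above the other 3 hearts of its group. Mirg in WT saline replicate 3 was at -0.86 log2 CPM, far below the other 5.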

How the results depend on the processing

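The number of members called was 1 for Ang/PE relative to saline in hearts labelled MCT1KO, and 0 without the low-count filter (adjusted p of Peg3 0.0802), with Xist as a covariate (0.0629), with the marker covariates and with the compared groups alone (0.28), but 3 with DESeq2 (Peg3, Rian, Grb10). For saline relative to no pump in WT it was 1, and 0 without the filter, with Xist, with the marker covariates, with GC and length offsets and with a replicate block. It was 1 for Ang/PE relative to saline in WT with the compared groups alone (Grb10) and 1 for the genotype by saline interaction with DESeq2 (Igf2r). For Ang/PE relative to saline averaged over genotypes it was 1, but 3 with a non-robust fit, 0 with Xist or marker covariates and 4 with DESeq2. The cause of these changes was not tested. Leaving out 1 heart gave 0 to 4 members for Ang/PE relative to saline in hearts labelled MCT1KO, 1 to 4 averaged over genotypes, and 0 to 1 for saline relative to no pump in each genotype, for the genotypes with saline, for their average over treatments and for the saline interaction. The 4 came without MCT1KO saline replicate 3.

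With the atrial and fat marker covariates these log2 values changed sign: between genotypes with saline Meg3 -0.31, Rian -0.10, Mirg -0.55 and Peg3 -0.055; for Ang/PE relative to saline in hearts labelled MCT1KO H19 0.15, Igf2 0.24, Meg3 0.41, Rian 0.025, Peg3 0.30 and Nap1l5 0.10; for saline relative to no pump Igf2 -0.11 in WT and Peg3 -0.43 under the MCT1KO label; for the Ang/PE interaction Meg3 0.23, Rian 0.030 and Mirg 0.37; averaged over genotypes H19 0.33, Igf2 0.20, Peg3 0.33 and Plagl1 0.42. Those covariates are high mainly in saline hearts. Of 939 single-gene values under the alternatives, 794 kept their direction and side of the threshold, 100 lost and 26 gained a call, and 19 changed sign. The 939 include results not called in the reported fit, which keep their side by staying uncalled. Peg3, Nap1l5 and Plagl1 with the marker covariates are among the 19, and their calls were lost too. Counting the reported fit, Peg3 was called in 7 of 18 settings, Igf2r in 6 of 19 and Grb10 averaged over genotypes in 25 of 27.

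Over all genes, 788 were called for Ang/PE relative to saline in hearts labelled MCT1KO, and 452 without the filter, 0 with marker covariates, 1224 with DESeq2, 1 with the compared groups alone and 46 without MCT1KO saline replicate 4. For saline relative to no pump in WT 1168 were called, and 509 without the filter, 549 with Xist, 0 with marker covariates, 106 with GC and length offsets, 1949 with DESeq2 and 2197 with the compared groups alone. For Ang/PE relative to saline in WT 3 were called, 0 to 37 under other edgeR settings on all hearts, 641 with DESeq2 and 923 with the compared groups alone. Averaged over genotypes 1435 were called, and 847 without the filter, 369 with Xist, 0 with marker covariates, 715 with a block and 907 with the compared groups alone. For Ang/PE relative to no pump under the MCT1KO label 89 were called, and 57 without the filter, 11 with Xist, 160 with marker covariates, 137 with GC and length offsets, 403 with DESeq2 and 24 with the compared groups alone. In the other comparisons DESeq2 called 5 to 371, and edgeR on all hearts called at most 1 except between genotypes with saline (28 with a non-robust fit, 82 with Xist, 115 with a block), for saline relative to no pump under the MCT1KO label (69 with Xist, 3 with a block) and for the saline interaction (3 without the filter, 9 with a block). Deviations from group means of same-numbered hearts correlated at -0.157 to 0.101 on average per comparison, with single pairs from -0.232 to 0.405. So few pairs cannot decide whether replicate numbers pair the hearts. A replicate block gave 534 and 527 genes in the first 2 comparisons, lost Peg3 (-1.30, adjusted p = 0.0662) and Igf2r (0.42, 0.0599), and called Grb10 in hearts labelled MCT1KO. Dlk1 did not pass the low-count filter and was fitted only without it, and Dlk1, Mirg and Igf2 rest on few counts.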
